A study of Mus musculus with 8 samples.

Results

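Collagen chain genes encode the alpha chains that wind around each other into collagen molecules, and in these data they were every gene symbol made of Col, a number, the letter a and a number, such as Col1a1. By this rule 44 of the 23304 gene symbols in each table were members, and 1 further symbol with the same start, Col4a3bp, was not. Transcript levels were measured by RNA sequencing in 8 libraries of NIH3T3 cells, an immortalised mouse fibroblast line of Swiss albino origin grown in donor bovine serum. The labels set up 4 groups of 2 libraries. WT 0 h and KO 0 h stand for unedited cells and for cells edited at ZMYND11 by CRISPR, both with no agent, and WT 2 h and KO 2 h stand for the same cells given mouse recombinant interferon-beta at 100 units/ml for 2 h. The labels name no clone and no edited position, the source field gives NIH3T3 while the extraction protocol names embryonic fibroblasts, and nothing says that replicates are separate cultures. The p-values below then measure the spread between libraries alone, and that spread may be technical.

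Zmynd11, the targeted gene, went against the labels. It had 1967 to 2511 reads in each of the 4 libraries labelled 0 h and 59 to 72 in each of the 4 labelled 2 h, whereas the interferon-induced gene Ifit1 stood at 1.22 to 3.95 CPM (counts scaled to a common library size) in the libraries labelled WT and at 196 to 396 CPM in those labelled KO. Isg15, also induced by interferon, stood at 3.51 to 5.16 CPM in the libraries labelled WT and at 64.4 to 74.1 CPM in those labelled KO. Zmynd11 thus followed the labelled time and these interferon-induced genes the labelled genotype, a pattern that an exchange of the labels KO 0 h and WT 2 h would also give. Whether they were exchanged was not tested. With such an exchange every 2 h minus 0 h value below would be a difference between genotypes, and every KO minus WT value one between interferon-beta and no agent. Groups are therefore named only as labelled, every direction below is a direction between labels, and the labelled time and the level of Zmynd11 cannot be told apart. Gene reads summed to 13671013 to 21299120 per library. The library labelled KO 0 h replicate 2 stood apart, with reads in 17498 genes against 14847 to 15945 in the others and with 17.3% of its reads in no gene, against 12.8 to 13.3% in the other 3 libraries labelled 0 h and 15.8 to 17.2% in those labelled 2 h. Of the fibroblast markers, Vim and Fn1 were high in each library, at 3928 to 6937 and 10481 to 12447 CPM, and Lum was at most 0.147 CPM. Summed markers of other cell types reached 7.56 CPM for epithelium, 12.8 for leukocytes, 3.64 for nerve and glia and 14.3 for endothelium, and the cartilage list reached 257 CPM, of which Sox9 alone made at most 256.

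Every collagen is a trimer of alpha chains, made of copies of the same chain or of chains from different genes. Fibrillar collagens such as I, III and V form the cross-banded fibrils of connective tissue, collagen IV forms the network of basement membranes, collagen VI forms beaded filaments around cells, and other classes sit on fibrils, anchor epithelia or span membranes. Fibroblasts are a main source of collagen I. By class the 44 members were 11 fibrillar, 6 basement membrane, 6 beaded filament, 9 fibril-associated (FACIT), 4 transmembrane, 3 hexagonal network and 2 multiplexin genes, 1 anchoring fibril gene and 2 others. Reads were found for 33 to 40 members per library, and 28 members passed the filter on low counts and were tested.

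Promoter sequences were taken from RefSeq (GRCm38.p6), where 35 of the 44 members matched. The 250 bases before the start are printed for 2 fibrillar genes that were lower in the libraries labelled 2 h and for the 3 members that were higher in them under both genotype labels. The promoter of Col1a1 is not shown. Capitals mark matches, on either strand, to TATAAA, the TATA box, to CCAAT and to GGGCGG, the GC box.
Col1a2, chr6:4505368-4505617, plus strand: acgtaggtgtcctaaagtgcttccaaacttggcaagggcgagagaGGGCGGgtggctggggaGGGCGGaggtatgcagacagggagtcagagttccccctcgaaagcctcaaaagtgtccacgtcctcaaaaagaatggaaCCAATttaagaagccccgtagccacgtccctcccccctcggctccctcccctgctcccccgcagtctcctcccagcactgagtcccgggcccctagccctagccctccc
Col3a1, chr1:45311288-45311537, plus strand: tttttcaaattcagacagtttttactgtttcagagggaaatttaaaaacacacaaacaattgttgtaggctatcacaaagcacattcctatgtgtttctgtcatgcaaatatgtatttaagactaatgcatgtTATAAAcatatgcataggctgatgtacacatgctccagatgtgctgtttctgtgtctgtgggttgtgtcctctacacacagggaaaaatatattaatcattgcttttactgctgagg
Col7a1, chr9:108953336-108953585, plus strand: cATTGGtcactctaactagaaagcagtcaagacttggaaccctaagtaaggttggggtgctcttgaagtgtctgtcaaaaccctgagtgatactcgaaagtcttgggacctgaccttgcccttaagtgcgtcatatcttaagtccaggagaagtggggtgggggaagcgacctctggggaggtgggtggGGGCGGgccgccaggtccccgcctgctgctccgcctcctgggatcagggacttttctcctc
Col11a2, chr17:34038888-34039137, plus strand: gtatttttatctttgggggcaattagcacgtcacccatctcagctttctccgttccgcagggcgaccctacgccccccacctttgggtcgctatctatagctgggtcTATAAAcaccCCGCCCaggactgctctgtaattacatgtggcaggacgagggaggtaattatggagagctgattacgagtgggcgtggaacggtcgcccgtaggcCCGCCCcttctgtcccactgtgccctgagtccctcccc
Col20a1, chr2:180986285-180986534, plus strand: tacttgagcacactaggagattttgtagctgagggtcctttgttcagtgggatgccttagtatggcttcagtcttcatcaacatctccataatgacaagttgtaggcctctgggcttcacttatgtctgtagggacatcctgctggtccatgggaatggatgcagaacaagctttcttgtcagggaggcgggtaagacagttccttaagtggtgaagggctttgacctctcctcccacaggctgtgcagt
In these letters Col1a2 held 2 GGGCGG and 1 CCAAT, Col3a1 held 1 TATAAA, Col7a1 held 1 CCAAT and 1 GGGCGG, Col11a2 held 1 TATAAA and 2 GGGCGG, and Col20a1 held no match. No match overlapped another. Of the 35 members with a promoter, 5 held TATAAA, 13 CCAAT and 21 GGGCGG, and over 32851 promoter windows of the same length these stood in 12.4%, 33.8% and 32.7%. Members with more than 1 window, Col9a1, Col6a2 and Col18a1, counted if any window held the match. The 32851 windows, of 27025 genes, were counted singly, so members and background were counted in unlike units. Among the 17 members with a promoter that were lower under both genotype labels, 1 held TATAAA, 8 CCAAT and 12 GGGCGG. These are matches of letters and say nothing of binding.

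Collagen genes together took a several-fold smaller share of the gene reads at the 2 h labels than at the 0 h labels. The share was 3.37% and 3.38% for WT 0 h, replicates 1 and 2, and 3.03% and 2.97% for KO 0 h. It was 0.714% and 0.800% for WT 2 h and 0.781% and 0.778% for KO 2 h. The groups labelled 0 h and 2 h did not overlap under either genotype label, and the library that stood apart, KO 0 h replicate 2, lay with its partner. In CPM, for which library sizes were scaled by TMM, the summed level was 4.90-fold higher at 0 h among the WT labels and 4.27-fold higher among the KO labels. The shares are given as a description, with no test. Fewer cells that make collagen and less collagen RNA per cell cannot be told apart in such bulk samples. The summed level of 8 fibroblast markers was 19849.7 to 21553 CPM in the libraries labelled 0 h and 15698 to 17415 CPM in those labelled 2 h. Fn1, the highest of them, had means of 12069 CPM in WT 0 h and 10932 in WT 2 h. Between the same groups Dcn went from 161 to 46.3 CPM, Pdgfra from 214 to 76.8 and S100a4 from 2069 to 750, while Thy1 went from 106 to 128. Of the 7 tested markers 5 were called lower and 1 higher among the WT labels, and 4 lower and 1 higher among the KO labels. That is 85.7% and 71.4% of these markers in either direction, against 61.2% and 61.1% of all genes, of which 31.1% and 31.2% were called lower. The part of these markers in the collagen values was not tested.

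The composition of the collagen reads differed as well. Fibrillar genes held 79.8 to 79.9% of the collagen reads in the 4 libraries labelled 0 h and 57.8 to 58.9% in the 4 labelled 2 h. Basement membrane genes held 6.53 to 6.64% and 21.2 to 22.6%, and beaded filament genes 11.6 to 11.9% and 13.1 to 13.9%. The summed level of the fibrillar class was 6.70-fold higher in the libraries labelled WT 0 h than in those labelled WT 2 h, that of the beaded filament class 4.22-fold, that of the basement membrane class 1.51-fold and that of the FACIT class 1.43-fold. Among the KO labels the same folds were 5.83, 3.76, 1.27 and 1.23. Col1a1, Col1a2 and Col3a1 made up most of the collagen reads. Without them the share of the other 41 members was 1.02% in WT 0 h, 0.916% in KO 0 h, 0.426% in WT 2 h and 0.441% in KO 2 h.

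**Figure D1:**
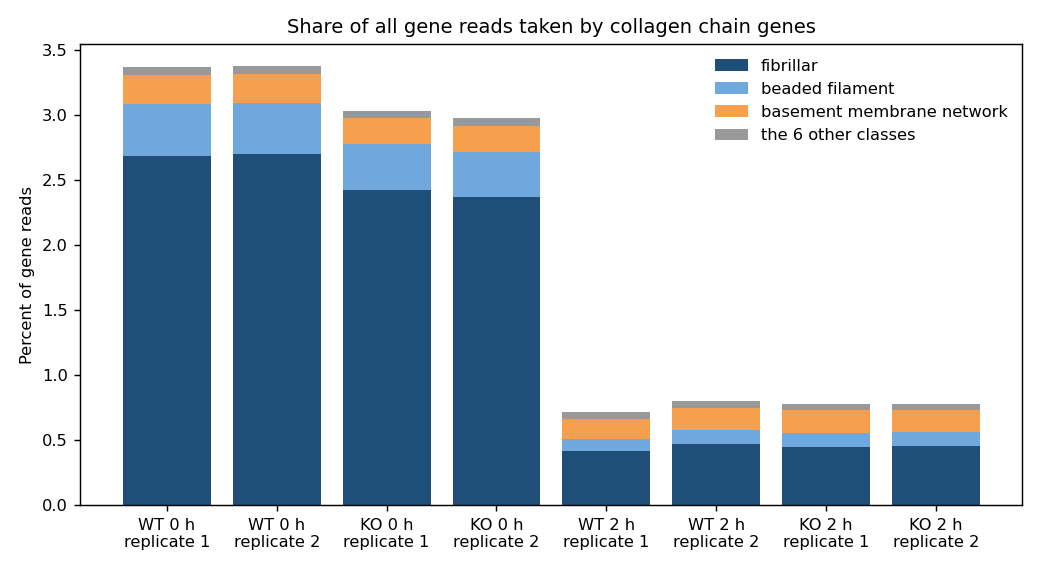
Percent of all gene reads (vertical axis) that fell in collagen chain genes in each of the 8 libraries, stacked by class, with the 6 classes of lowest share joined. The 4 libraries labelled 0 h reach 2.97 to 3.38% and the 4 labelled 2 h 0.714 to 0.800%, and the fibrillar part of the bar shrinks most.

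The first comparison is that of WT 2 h with WT 0 h, which by its labels asks for the response to interferon-beta. Most tested collagen genes were lower at 2 h: edgeR's quasi-likelihood test called 21 of the 28 lower and 4 higher at a Benjamini-Hochberg adjusted p below 0.05, against a background of 61.2% of 12807 genes called, 31.1% lower and 30.1% higher. The median log2 fold change of the 28 tested members was -1.08, against 0.01 for all genes tested. Among the called members 19 differed at least 2-fold. In the second comparison, KO 2 h against KO 0 h, 20 of the 28 were called lower and 3 higher, with 61.1% of all genes called, 31.2% lower and 30% higher. The median was -0.78 against -0.01, and 14 of the called members differed at least 2-fold. These 2 comparisons share no library. Lower under both genotype labels were 20 members and higher under both were 3, and the 3 members called under neither were Col2a1, Col9a3 and Col17a1. Both libraries labelled 2 h lay below both labelled 0 h for 22 members (WT labels) and 21 (KO labels), and above for 4 under each. Of all tested genes 41.0% and 38.7% lay below in this way, and 41.6% and 38.8% above. Labelled times that do not overlap, as given for single members below, were thus common among all genes.

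**Figure D2:**
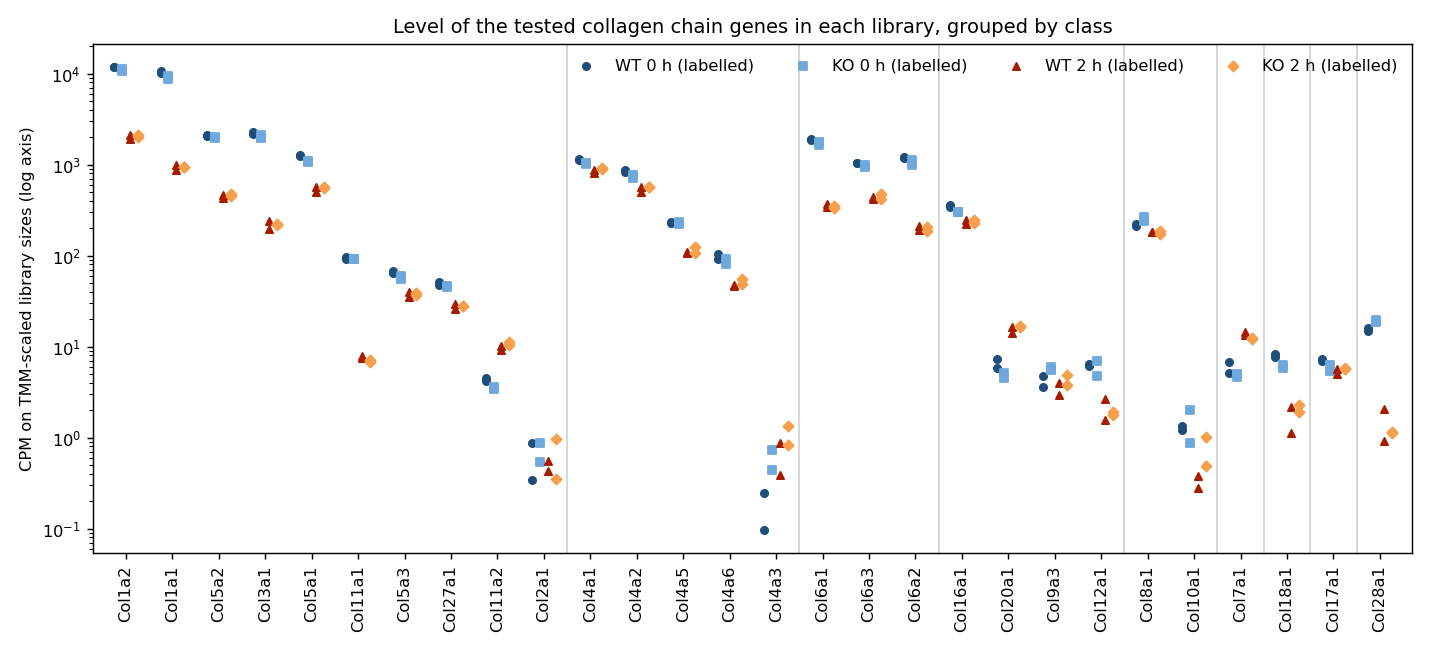
Level in CPM on TMM-scaled library sizes (vertical log axis) of each of the 28 tested collagen genes (horizontal axis, grouped by class between the grey lines) in each of the 8 libraries, with 1 point per library. Col1a2 and Col1a1 lie between 8770.4 and 11794 CPM in the libraries labelled 0 h, and for 20 members called lower under both genotype labels the red and orange points of the 2 h labels lie below the blue ones. Of all tested genes 41.0% (WT labels) and 38.7% (KO labels) lay fully below at 2 h.

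The chains of collagen I, the chief fibrillar collagen of skin, bone and tendon, were the most highly expressed members. Col1a1, which encodes its alpha-1 chain, stood at 10270.0 and 10782 CPM in WT 0 h, 9424 and 8770.4 in KO 0 h, 865 and 991 in WT 2 h, and 947 and 951 in KO 2 h. Each library labelled 0 h was above each labelled 2 h. The log2 fold change was -3.50 for WT (SE 0.09, edgeR adjusted p = 1.27e-18) and -3.26 for KO (SE 0.09, edgeR adjusted p = 2.41e-18). Col1a2, the partner chain whose promoter is printed above, stood at 11794 and 11732 CPM in WT 0 h, 11129 and 10769 in KO 0 h, 1892 and 2091 in WT 2 h, and 2009 and 2132 in KO 2 h. It separated the labelled times in the same way but fell less, by 2.56 (SE 0.08) and by 2.40 (SE 0.08) on the log2 scale. Col3a1 encodes collagen III, which is found with collagen I in skin and vessels. It stood at 2309 and 2161 CPM in WT 0 h, 2113 and 1977 in KO 0 h, 196 and 237 in WT 2 h, and 219 and 224 in KO 2 h. The groups labelled 0 h and 2 h were apart, and Col3a1 fell by 3.37 (SE 0.09) and fell by 3.21 (SE 0.09).

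Collagen V joins collagen I fibrils and helps to set their width. Its chain Col5a2 stood at 2113 and 2081 CPM in WT 0 h, 2032 and 1982 in KO 0 h, 425 and 465 in WT 2 h, and 479.6 and 453 in KO 2 h. The labelled times did not overlap, and Col5a2 fell by 2.24 (SE 0.08) and by 2.11 (SE 0.08). The other chains of collagen V fell less: Col5a1 gave -1.24 (SE 0.08) and -0.96 (SE 0.08), from means of 1251 and 1087 CPM at 0 h, and Col5a3 gave -0.81 (SE 0.10) and -0.60 (SE 0.10), from means of 65.5 and 57.4 CPM. Collagen XI is the cartilage relative of collagen V, and its chains moved apart. Col11a1 stood at 96.5 and 92.6 CPM in WT 0 h, 91.1 and 91.5 in KO 0 h, 7.82 and 7.56 in WT 2 h, and 7.12 and 6.86 in KO 2 h. It had the lowest log2 fold change of the tested members among the WT labels (-3.62, SE 0.11) and gave -3.70 (SE 0.11) among the KO labels. Col11a2, which makes another chain of the same collagen, was low, at 4.20 and 4.52 CPM in WT 0 h, 3.42 and 3.61 in KO 0 h, 9.12 and 10.3 in WT 2 h, and 10.4 and 11.3 in KO 2 h. Each library labelled 2 h was above each labelled 0 h, and Col11a2 rose by 1.15 (SE 0.18, edgeR adjusted p = 9.48e-06) and 1.62 (SE 0.19, edgeR adjusted p = 1.63e-07).

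Of the other fibrillar genes, Col27a1, which is expressed in cartilage, gave -0.84 (SE 0.10) and -0.71 (SE 0.10), from means of 49.2 and 45.8 CPM at 0 h. Col2a1, the main collagen of cartilage, had 5 to 21 reads per library and was not called (-0.31, SE 0.66, and -0.04, SE 0.63). In all, 8 of the 10 tested fibrillar genes were lower and 1 was higher under each genotype label, with class medians of -1.74 and -1.53.

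The basement membrane genes were split. Col4a1 and Col4a2 make the collagen IV network found in most basement membranes. Col4a1 stood at 1124 and 1154 CPM in WT 0 h, 1046 and 1019 in KO 0 h, 816 and 879 in WT 2 h, and 928 and 901 in KO 2 h. The groups did not overlap, but the differences were small, with -0.43 for WT (SE 0.07, edgeR adjusted p = 2.37e-05) and -0.18 for KO (SE 0.07, edgeR adjusted p = 0.0396). The KO call was lost without any 1 of 7 libraries, all but KO 0 h replicate 2 (edgeR adjusted p 0.0785 to 0.25), and scaled by library size alone the value was -0.03 (edgeR adjusted p = 0.754, from 0.0357 to 0.754 over all alternatives). The KO call was also lost with RLE size factors, without the filter on low counts and in the fit of the 4 KO libraries alone (edgeR adjusted p 0.0622 to 0.153). Col4a2 stood at 835 and 868 CPM in WT 0 h, 773 and 718 in KO 0 h, 496 and 564 in WT 2 h, and 574 and 563 in KO 2 h. It was lower in each library labelled 2 h and fell by 0.68 (SE 0.08) and by 0.39 (SE 0.08). Col4a5, which builds the network of the kidney filter, stood at 234 and 228 CPM in WT 0 h, 221 and 234 in KO 0 h, 106 and 109 in WT 2 h, and 124 and 106 in KO 2 h. The labelled times were apart, with -1.10 (SE 0.08) and -0.98 (SE 0.08), and its neighbour Col4a6 gave -1.06 (SE 0.09) and -0.72 (SE 0.10).

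Col4a3, another chain of the kidney network, was at the edge of detection, with 2 and 5 reads in WT 0 h, 8 and 11 in KO 0 h, 16 and 7 in WT 2 h, and 29 and 12 in KO 2 h. It was called higher among the WT labels (1.83, SE 0.77, edgeR adjusted p = 0.0427), while the KO value of 0.94 (SE 0.59) was not called (edgeR adjusted p = 0.177). The WT call was lost without WT 0 h replicate 1, WT 0 h replicate 2, WT 2 h replicate 1, KO 2 h replicate 1 or KO 2 h replicate 2 (edgeR adjusted p 0.0509 to 0.365), and DESeq2 gave an adjusted p of 0.0682. It was also lost without the filter on low counts (edgeR adjusted p = 0.0539, from 0.0302 to 0.365 over all alternatives).

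Collagen VI is a filament of the alpha-1, alpha-2 and alpha-3 chains, and the genes of all of these fell. Col6a1 stood at 1901 and 1872 CPM in WT 0 h, 1765 and 1629.5 in KO 0 h, 339 and 365 in WT 2 h, and 333 and 351 in KO 2 h. Col6a2 stood at 1221 and 1198 CPM in WT 0 h, 1126 and 990.0 in KO 0 h, 190.5 and 213 in WT 2 h, and 186 and 205 in KO 2 h. Each library labelled 0 h was above each labelled 2 h for both genes, with -2.42 (SE 0.08) and -2.31 (SE 0.08) for Col6a1 and -2.58 (SE 0.09) and -2.44 (SE 0.09) for Col6a2. Col6a3, the longest of these chains, stood at 1039.8 and 1045 CPM in WT 0 h, 935 and 981 in KO 0 h, 418 and 437 in WT 2 h, and 479 and 419 in KO 2 h. It was also apart between the labelled times, and it fell by 1.29 (SE 0.08) and by 1.09 (SE 0.08).

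FACIT collagens attach to the surface of fibrils. Col16a1, the highest of them in CPM, stood at 343 and 357 CPM in WT 0 h, 301 and 303 in KO 0 h, 221 and 249 in WT 2 h, and 243 and 230.0 in KO 2 h, with -0.58 (SE 0.08) and -0.35 (SE 0.08). Its labelled times did not overlap. Col20a1 went the other way, at 7.28 and 5.90 CPM in WT 0 h, 4.53 and 5.15 in KO 0 h, 14.0 and 16.5 in WT 2 h, and 16.6 and 16.7 in KO 2 h. Each library labelled 2 h was above each labelled 0 h, and Col20a1 rose by 1.21 (SE 0.16, edgeR adjusted p = 7.9e-07) and 1.79 (SE 0.17, edgeR adjusted p = 5.47e-09). Col12a1, which binds collagen I fibrils, fell from means of 6.25 and 5.91 CPM by 1.57 (SE 0.27) and 1.67 (SE 0.29). Col9a3, a chain of the cartilage collagen IX, was at 3.57 and 4.77 CPM in WT 0 h, 5.57 and 6.01 in KO 0 h, 2.91 and 4.0 in WT 2 h, and 3.82 and 4.83 in KO 2 h. Its WT groups overlapped and it was not called (-0.27, SE 0.25, and -0.44, SE 0.24).

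Col7a1 encodes the chain of the anchoring fibrils that hold the epidermis to the dermis. It stood at 5.13 and 6.73 CPM in WT 0 h, 5.02 and 4.68 in KO 0 h, 14.5 and 13.6 in WT 2 h, and 12.5 and 12.2 in KO 2 h. Each library labelled 2 h was above each labelled 0 h, and Col7a1 rose by 1.24 (SE 0.17, edgeR adjusted p = 9.47e-07) and 1.34 (SE 0.18, edgeR adjusted p = 8.46e-07). The 4 summed endothelial markers stood at 2.16 to 4.41 CPM in the libraries labelled 0 h and at 11.5 to 14.3 CPM in those labelled 2 h, where Vwf made up most of the sum, and Pecam1 was at 0.140 to 0.607 CPM. Cdh5 went the other way, from means of 1.59 (WT 0 h) and 1.70 (KO 0 h) to 0.546 (WT 2 h) and 0.997 CPM (KO 2 h). Of these markers 1 was called higher and 1 lower among the WT labels, and 1 higher and 0 lower among the KO labels. That is 50% and 25%, against 61.2% and 61.1% of all genes. The summed epithelial markers were lower in the libraries labelled 2 h, at 2.99 to 3.71 against 6.11 to 7.56 CPM, and Epcam and Krt5 were at 0 to 0.386 CPM. Their part in the collagen values was not tested.

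The hexagonal network genes encode short chains of vessel and corneal membranes (Col8a1) and of hypertrophic cartilage (Col10a1). Col8a1 stood at 223 and 214 CPM in WT 0 h, 238 and 265 in KO 0 h, 182 and 182 in WT 2 h, and 172 and 189 in KO 2 h. The labelled times did not overlap, and the values were -0.26 (SE 0.08, edgeR adjusted p = 0.00563) and -0.48 (SE 0.08, edgeR adjusted p = 1.39e-05). The WT call was lost without WT 0 h replicate 1, WT 2 h replicate 1 or WT 2 h replicate 2 (edgeR adjusted p 0.0604 to 0.0623) and when scaled by library size alone (-0.13, edgeR adjusted p = 0.179, from 0.000579 to 0.179 over all alternatives). Col10a1 was low, at 1.22 and 1.33 CPM in WT 0 h, 0.883 and 2.005 in KO 0 h, 0.378 and 0.278 in WT 2 h, and 1.01 and 0.490 in KO 2 h. The WT groups were apart and the KO groups overlapped. Col10a1 was called lower among the WT labels (-1.93, SE 0.60, edgeR adjusted p = 0.00799) but not without WT 2 h replicate 2 (edgeR adjusted p = 0.0788, from 0.00168 to 0.0788 over all alternatives), and the KO value was -0.85 (SE 0.53).

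Col18a1 encodes a basement membrane collagen whose end fragment is endostatin. It stood at 8.26 and 7.76 CPM in WT 0 h, 6.29 and 5.81 in KO 0 h, 1.13 and 2.17 in WT 2 h, and 1.93 and 2.31 in KO 2 h, and it fell by 2.28 (SE 0.26) and by 1.53 (SE 0.26). Col28a1, which resembles collagen VI and is known from peripheral nerve, stood at 15 and 16.2 CPM in WT 0 h, 19.5 and 18.4 in KO 0 h, 0.917 and 2.06 in WT 2 h, and 1.15 and 1.12 in KO 2 h. Both genes were higher in each library labelled 0 h, and Col28a1 fell by 3.39 (SE 0.23) and fell by 4.05 (SE 0.24). Col17a1, a transmembrane collagen of the junctions under epithelia, stood at 7.33 and 6.98 CPM in WT 0 h, 5.35 and 6.35 in KO 0 h, 5.02 and 5.67 in WT 2 h, and 5.79 and 5.67 in KO 2 h. Its WT groups were apart and its KO groups overlapped. It was not called (-0.42, SE 0.19, edgeR adjusted p = 0.0595, and -0.02, SE 0.20, edgeR adjusted p = 0.93). In the fit of the 4 WT libraries alone Col17a1 was called lower (-0.41, SE 0.18, edgeR adjusted p = 0.0450), and without KO 0 h replicate 1 the WT value was -0.43. The adjusted p of the WT value ran from 0.045 to 0.3 over all alternatives.

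**Figure D3:**
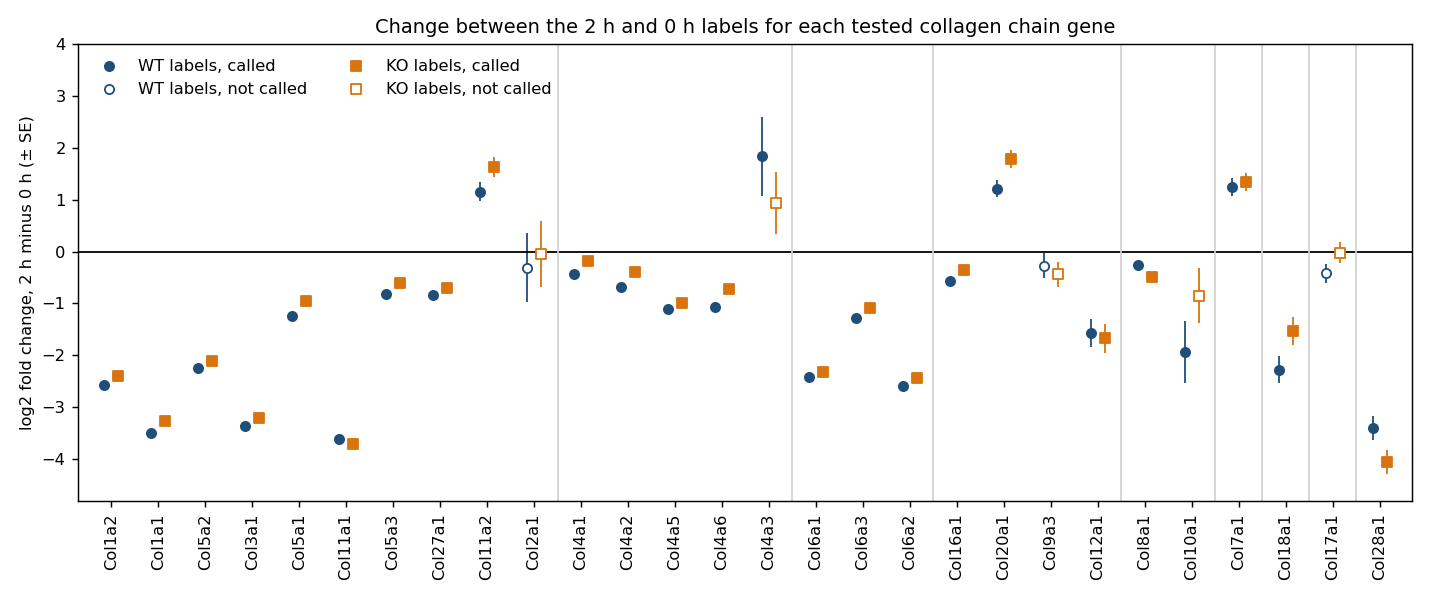
log2 fold change of the libraries labelled 2 h against those labelled 0 h (vertical axis, point ± SE from the edgeR fit) for each of the 28 tested collagen genes, grouped by class between the grey lines, blue for WT and orange for KO labels, filled where called. Col11a2, Col20a1 and Col7a1 are called above 0 under both labels, and 20 genes are called below 0 under both.

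The 16 members under the filter had 0 to 16 reads in any library. The highest in total were Col22a1 with 43 reads over the 8 libraries, Col4a4 with 35 and Col9a1 with 32. The 32 reads of Col9a1, a chain of collagen IX, were all in the libraries labelled 0 h, with 8 and 6 in WT 0 h, 2 and 16 in KO 0 h, and 0 in each library labelled 2 h, where a count of 0 allows up to 3 reads, or 0.138 to 0.210 CPM. These counts were below the filter and were not tested. Col19a1, Col9a2, Col14a1, Col6a4, Col6a5, Col25a1, Col24a1, Col8a2, Col23a1 and Col6a6 had 4 to 24 reads in total, Col15a1 and Col26a1 had 1 read each, and Col13a1 had 0. The chains Col6a4, Col6a5 and Col6a6, which can take the place of the alpha-3 chain of collagen VI, were thus close to or below the detection limit in each library.

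Levels of different genes were set side by side per kilobase of coding length, as CPM per coding kb. In the libraries labelled WT 0 h the order was led by Col1a2 at 2858 ± 10.6 (mean ± SD, n = 2), Col1a1 at 2415 ± 83.1, Col6a1 at 613 ± 6.74, Col3a1 at 509 ± 23.9, Col5a2 at 467 ± 5.09, Col6a2 at 389.9 ± 5.39, Col4a1 at 227 ± 4.35 and Col5a1 at 227 ± 3.65. Neighbours in this order did not overlap, except Col4a1 with Col5a1. Measured per union of exons instead of coding length, Col1a1 came before Col1a2, so the order of these 2 depends on the length used. At the 2 h labels Col1a2 and Col1a1 still led, Col4a1 moved from place 7 to place 3 under both genotype labels, and Col3a1 moved from place 4 to place 11 among the WT labels and to place 10 among the KO labels. In WT 2 h and in KO 2 h the libraries of Col3a1 overlapped those of Col16a1, so the order of these neighbours was not resolved. Across the 28 tested members the level per coding kb in WT 0 h and the log2 fold change among the WT labels had a Spearman rho of -0.54, and for the KO labels, with KO 0 h as the level, of -0.56. The level and the change share the 0 h libraries, so these are descriptions. The 10 members above 100 CPM per coding kb in WT 0 h had a median log2 fold change of -2.33 and the other members one of -0.69.

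**Figure D4:**
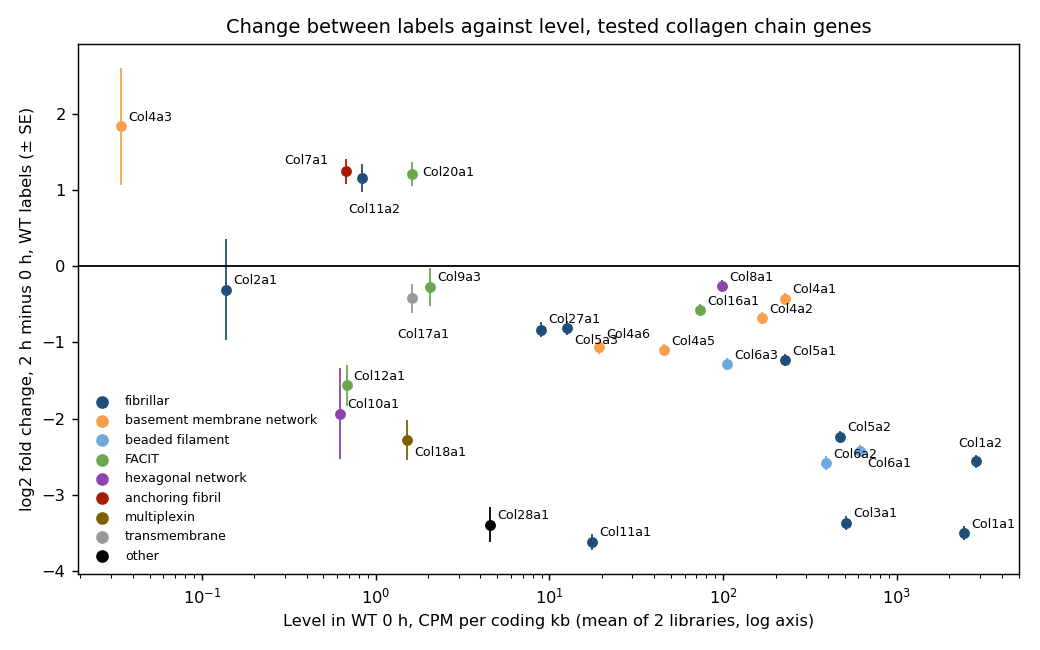
log2 fold change among the WT labels (vertical axis, ± SE) against the level in WT 0 h in CPM per coding kb (horizontal log axis, mean of 2 libraries) for the 28 tested collagen genes, coloured by class. The 4 genes called higher, Col4a3, Col7a1, Col11a2 and Col20a1, all lie to the left of 2 CPM per coding kb, and Col1a1 and Col1a2 lie at the lower right.

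Ratios were formed for 5 pairs of chains that assemble together, and in these the proportions differed between the labelled times. The ratio of Col1a1 to Col1a2, in CPM per coding kb, was 0.822 and 0.868 in WT 0 h, 0.800 and 0.769 in KO 0 h, 0.432 and 0.447 in WT 2 h, and 0.445 and 0.421 in KO 2 h. The ratio of Col5a1 to Col5a2 went the other way, from 0.477 and 0.495 in WT 0 h and 0.439 and 0.444 in KO 0 h to 0.948 and 0.995 in WT 2 h and 0.970 and 0.984 in KO 2 h. Each ratio was apart between the labelled times under both genotype labels. Col6a3 to Col6a1 went from 0.171 and 0.174 in WT 0 h and 0.165 and 0.188 in KO 0 h to 0.385 and 0.374 in WT 2 h and 0.450 and 0.372 in KO 2 h. Shifts were smaller for Col4a1 to Col4a2, with means of 1.37 in WT 0 h, 1.42 in KO 0 h, 1.64 in WT 2 h and 1.64 in KO 2 h, and for Col6a1 to Col6a2, with 1.57, 1.62, 1.76 and 1.76. These also did not overlap between the labelled times. No ratio was formed for Col8a1 and Col8a2, since Col8a2 had 9 reads in all. None was formed for Col4a5 and Col4a6 either, so whether these kept their proportion is not given. Their log2 fold changes were close among the WT labels (-1.10 and -1.06) and further apart among the KO labels (-0.98 and -0.72). The absolute size of a ratio depends on the coding lengths and on how evenly reads cover each gene.

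**Figure D5:**
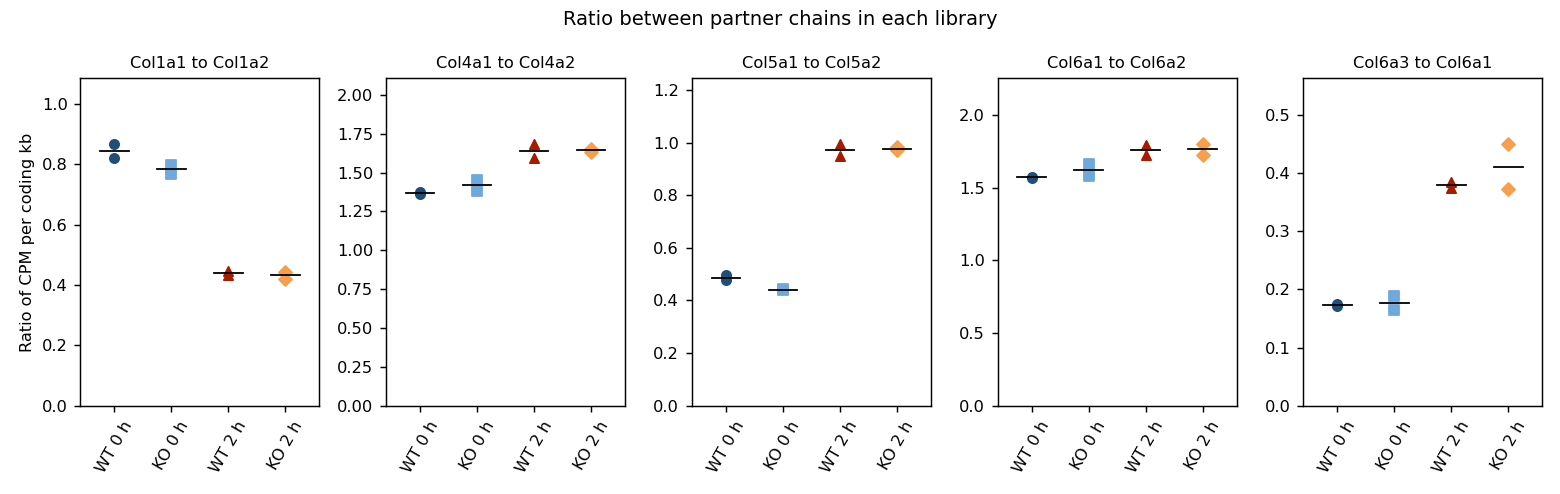
Ratio of CPM per coding kb (vertical axes, from 0) between partner chains in each library, with 1 point per library and a line at the mean of 2, for the 4 labelled groups. Col1a1 to Col1a2 falls from 0.769 to 0.868 at 0 h to 0.421 to 0.447 at 2 h, and Col5a1 to Col5a2 and Col6a3 to Col6a1 lie higher at 2 h.

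Several members lie side by side in the genome, here read from an annotation of GRCm38 by gene symbol. Col3a1 and Col5a2 face each other tail to tail on chromosome 1, and both were lower in the libraries labelled 2 h. Col4a1 and Col4a2 on chromosome 8 and Col4a6 and Col4a5 on chromosome X are arranged head to head, and Col6a2 and Col6a1 follow each other on the same strand of chromosome 10. Both members of each of these pairs were called lower under both genotype labels, as were 20 of the 28 tested members, and agreement within pairs was not tested. Col4a4 and Col4a3 on chromosome 1 are also head to head, but Col4a4 was under the filter and Col4a3 gave positive values (1.83 and 0.94). The neighbours Col9a1 with Col19a1, Col6a6 with Col6a5 and Col6a5 with Col6a4 were under the filter. Among the WT labels the log2 fold changes were -3.37 and -2.24 for Col3a1 and Col5a2, -0.43 and -0.68 for Col4a1 and Col4a2, -1.06 and -1.10 for Col4a6 and Col4a5, and -2.58 and -2.42 for Col6a2 and Col6a1. Exons of Col4a1 overlap those of Col4a2 on the opposite strand, Col10a1 overlaps Nt5dc1 and Col9a3 overlaps Tcfl5. Of the members called higher, Col4a3 overlaps C430014B12Rik on the opposite strand. Col7a1 overlaps Mir711 and Col20a1 overlaps BX649560.1, both on the same strand. Col3a1 overlaps Gm47302 on the same strand, and Col5a1 overlaps 2810430I11Rik and Gm13372 on the opposite strand. Without a stated strand setting and annotation, reads in such overlaps cannot be told apart.

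The remaining comparisons between groups ask whether the labelled genotypes differ at each labelled time. At 0 h edgeR called 0 of the 28 tested members between the KO and WT labels, where 3.92% of all genes were called, 2.65% higher and 1.27% lower. DESeq2 also called 0, and 8 of the 28 members had an unadjusted edgeR p below 0.05, against 2615 of the 12807 genes. Of the 28 values 22 were negative and 6 positive, with a median of -0.13 against 0.01 for all genes. In 19 of the 28 members both KO libraries lay below both WT libraries, against a smaller share, 26.3%, of all genes. Col16a1 gave -0.21 (SE 0.08, edgeR adjusted p = 0.111), Col5a1 -0.20 (SE 0.08, edgeR adjusted p = 0.131), Col1a1 -0.21 (SE 0.08, edgeR adjusted p = 0.133) and Col8a1 0.20 (SE 0.08, edgeR adjusted p = 0.139). Without KO 0 h replicate 1, 3 members were called lower: Col6a2 (-0.33, edgeR adjusted p = 0.0187, from 0.0187 to 0.569 over all alternatives), Col1a1 (-0.30, 0.0337, from 0.0337 to 0.536) and Col4a2 (-0.29, 0.0377, from 0.0377 to 0.531). That fit leaves the library that stands apart, KO 0 h replicate 2, alone in its group, and it called 8.06% of all genes.

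At 2 h edgeR again called 0 of the 28 members between the KO and WT labels, with 1.6% of all genes called, 1.59% higher and 0.00781% lower. DESeq2 called 0 as well, and 0 members had an unadjusted edgeR p below 0.05, against 665 of the 12807 genes. The median was 0.07, 21 values were positive and 7 negative, and Col1a1 gave 0.03 (SE 0.08), Col1a2 0.06 (SE 0.08) and Col3a1 0.03 (SE 0.09). The difference between the KO and WT changes, the interaction, was called for 0 members, with 0.133% of all genes called, 0.0547% higher and 0.0781% lower. DESeq2 called 0, and 7 of the 28 members had an unadjusted edgeR p below 0.05, against 1637 of the 12807 genes. Of the 28 interaction values 22 were positive, with a median of 0.18 against -0.01 for all genes. Most log2 fold changes were thus less negative or more positive among the KO labels, but no member passed the test. The interaction contains the same 0 h libraries as the KO minus WT comparison at 0 h, where 22 values were negative. These sign counts are therefore not separate observations. Col4a2 gave 0.29 (SE 0.11, edgeR adjusted p = 0.301), Col5a1 0.28 (SE 0.11, edgeR adjusted p = 0.316) and Col1a1 0.24 (SE 0.11, edgeR adjusted p = 0.376). A p that misses the threshold does not show that these genes behave alike under both labels.

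Collagen chains are hydroxylated, glycosylated, folded and trimmed by dedicated proteins, and most of the tested genes for these steps were also called lower at the 2 h labels. Of 29 genes on a list of collagen synthesis, 28 were found in the tables and 23 tested. Among the WT labels 18 were called lower and 2 higher, with a median of -0.49, and among the KO labels 16 lower and 2 higher, with a median of -0.50. Of the list 87.0% and 78.3% were thus called in either direction, against 61.2% and 61.1% of all genes, of which 31.1% and 31.2% were called lower. P4ha3, a subunit of prolyl 4-hydroxylase, gave -2.13 (SE 0.13) and -2.44 (SE 0.13), and Serpinh1, the collagen chaperone also called Hsp47, gave -1.5 (SE 0.08) and -1.29 (SE 0.08) from means of 1608 and 1374 CPM at 0 h. The prolyl isomerase Fkbp10 gave -1.30 (SE 0.08) and -1.01 (SE 0.09). Adamts2, which cuts off the amino-terminal propeptide, had 101 and 79 reads in WT 0 h, 63 and 49 in KO 0 h, 1 and 0 in WT 2 h, and 0 and 0 in KO 2 h. Its level was 161-fold lower in WT 2 h (exact 95% interval 28.5 to 6397, counting error only) and at least 40.7-fold lower in KO 2 h, set against 3 reads over the group. The 2 genes that rose, named after their values were seen, were Bmp1, which trims the other end of procollagen (0.66, SE 0.08, and 0.95, SE 0.08), and Adamts14, a relative of Adamts2 (0.52, SE 0.11, and 0.73, SE 0.11).

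Of 8 genes for collagen receptors, 3 were higher and 2 lower among the WT labels and 4 were higher and 1 lower among the KO labels. That is 62.5% called under each label, close to the 61.2% and 61.1% of all genes, and the count is therefore no result about the receptors as a list. Itga1 and Itga2, which pair with Itgb1 into collagen-binding integrins, rose by 1.49 (SE 0.37) and 1.96 (SE 0.33) among the WT labels and by 1.62 (SE 0.37) and 1.26 (SE 0.31) among the KO labels, from means of 1.18 to 1.97 CPM at 0 h. Ddr2, a receptor tyrosine kinase for fibrillar collagen, gave -0.55 (SE 0.07) and -0.61 (SE 0.07), and its relative Ddr1 gave 0.33 (SE 0.09) and 0.56 (SE 0.09). Itgb1 itself was not called (0.09, SE 0.08, and -0.12, SE 0.08). No gene of the synthesis and receptor lists was called between the KO and WT labels at 0 h or at 2 h or in the interaction by edgeR, and 7, 1 and 5 synthesis genes and 4, 0 and 1 receptor genes had an unadjusted p below 0.05 in those 3 comparisons. Of all 12807 genes, 2615, 665 and 1637 had such a p.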

How the data were processed

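Whole-number counts of reads per gene symbol were deposited by the authors in 1 table per library. The submitters' processing notes name bcl2fastq 2.15, STAR 2.5.2b, HTSeq and the mouse build mm9, while for the annotation and the use of strand these sources are silent. Summary lines (36.9 to 43.2% of reads) were left out. Multi-mapped reads stayed unassigned, so near-identical genes can be undercounted.

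The model was fitted to the deposited counts in edgeR 4.0.16 under R 4.3.3: filterByExpr with groups (minimum count 10, minimum total 15; 12807 genes kept), TMM scaling, 1 robust quasi-likelihood fit over 8 libraries with a coefficient per group (4 residual degrees of freedom, biological coefficient of variation 6.74%), and Benjamini-Hochberg adjustment over all genes. CPM use TMM-scaled library sizes. Replicates differed beyond sampling noise (chi-square per degree of freedom 3.04 to 9.64). Coding length was the longest coding sequence of each gene in GENCODE M21 (GRCm38), since no protein table was at hand, and that build, which differs from mm9, served for lengths, neighbours and RefSeq promoters alone.

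Members with a mean of at least 1 CPM are named. Values per library are given for the 3 highest of each class and for the 5 called members that changed most in each direction. The members and lists were chosen with earlier results of these data known. Alternatives were RLE factors, library size alone, DESeq2 1.42.0, other filters, a replicate block, fits of the 4 libraries compared, and each library left out, the one remaining library of that group then being taken to vary as elsewhere.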

Additional observations from a re-analysis of the deposited data

How the results depend on the processing

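The WT count of called members was 23 to 27 of 26 to 43 tested and the KO count 22 or 23 under every alternative run, and no called member changed direction. The lost calls were those of Col4a3, Col8a1 and Col10a1 among the WT labels and of Col4a1 among the KO labels, given above. Leaving out each library moved the count of members called between the KO and WT labels at 0 h within 0 to 3, and the counts at 2 h and for the interaction stayed at 0. Library size alone shifted the median of all genes by 0.14 (WT) and 0.15 (KO) on the log2 scale and made the split 4823 higher and 3055 lower (WT) and 4834 and 3036 (KO), while members were called 4 higher and 20 lower, and 3 and 19.

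Over TMM-scaled library size the collagen share was 3.52% (WT 0 h), 3.18% (KO 0 h) and 0.745% (KO 2 h), and without Col1a1, Col1a2 and Col3a1 it was 1.02%, 0.916%, 0.426% and 0.441% in WT 0 h, KO 0 h, WT 2 h and KO 2 h. Without length correction, by construction, the ratio of Col1a1 to Col1a2 was 0.895, 0.831, 0.466 and 0.459 in that order, Col5a1 to Col5a2 0.597, 0.542, 1.19 and 1.20, and Col6a3 to Col6a1 0.553, 0.566, 1.22 and 1.32. Col4a1 to Col4a2 was then 1.34 in WT 0 h and 1.61 in KO 2 h, and Col6a1 to Col6a2 was 1.56 in WT 0 h. With the union of exons for length, a choice made after seeing the data, 15 of 28 places in the order of levels changed, by at most 3.

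The replicate numbers gave no pairing: deviations of same-numbered libraries correlated at -0.19 to 0.04 over 11553 genes. A replicate block called 3 members higher and 21 lower among the WT labels, 3 and 19 among the KO labels and 0 in each of the other 3 comparisons. The block ended the calls of Col4a3 among the WT labels (edgeR adjusted p = 0.0529) and of Col4a1 among the KO labels (edgeR adjusted p = 0.0740). With the numbers of KO 0 h crossed, an alternative added after seeing the data, the block called 3 higher and 21 lower, 3 and 20, and 0 in the others, and only Col4a3 lost its call (edgeR adjusted p = 0.0507). Depth limits Col4a3, Col2a1, Col10a1 and the 16 members under the filter, where a few reads decide a value.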
